A study of Mus musculus with 4 samples.

Results

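This account concerns 10 genes of the deposited table of 23361, chosen by name: 7 transcription factors that induce epithelial-to-mesenchymal transition (EMT) and 3 regulators that oppose it. The inducers were Snai1, Snai2, Zeb1, Zeb2, Twist1, Twist2 and Prrx1, and the epithelial antagonists were Grhl2, Ovol1 and Esrp1. All 10 were found in the table, and all 10 passed the filter on low counts. The rule names genes and uses no measured value, but the members were chosen with earlier results of these data known. RNA was measured in 4 libraries of cultured mammary tumour cells, 2 labelled High Arid1a and 2 labelled Low Arid1a. The High libraries, AB-C1 and AB-C2, are a pair of clones, 1 library each, transduced with a lentiviral vector for over-expression of Arid1a. The Low libraries, UT-R1 and UT-R2, are duplicates of the parental 23116 MT line. All cells come from the Chaos3 mouse model, which carries a mutant Mcm4 allele, on the C3HeB/FeJ strain. The table numbers the libraries within a group without tying a number to a clone, so they are called High libraries 1 and 2 and Low libraries 1 and 2 here. Each clone gave 1 library and no control clone is among the 4 libraries. A change that came with clonal growth or transduction and a change that came with the vector's Arid1a therefore cannot be told apart.

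EMT is a reversible programme in which epithelial cells give up junctions and apical-basal polarity and take on a motile, matrix-producing state. Snail (Snai1), Slug (Snai2), Zeb1 and Zeb2 are zinc-finger proteins that bind E-box sequences in the promoters of E-cadherin and other junction genes and repress them. Twist1 and Twist2 are basic helix-loop-helix factors of mesoderm and mesenchyme, and Prrx1 is a homeobox factor of mesenchymal tissue. Against them, Grhl2 activates junction genes and represses Zeb1, Ovol1 is a zinc-finger repressor of mesenchymal factors, and Esrp1 is an RNA-binding protein that keeps epithelial splice forms. In the mammary gland, Snai2 also belongs to the basal cell layer, so its RNA alone does not mark a mesenchymal cell.

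The libraries held 16523077 and 24307249 fragments (High libraries 1 and 2) and 13889856 and 28110812 fragments (Low libraries 1 and 2). Arid1a itself was at 49.8 and 58.3 CPM (fragments scaled to library size) in the High libraries, against 82.2 and 94.2 CPM in the Low libraries. It was thus not higher under the High label (log2 fold change -0.71 ± 0.23, SE; edgeR, adjusted p = 0.165), and High library 1 taken alone passed as lower (-0.82 ± 0.30; edgeR, adjusted p = 0.0362). Whether the vector's transcript was counted is not known, so each direction below belongs to the libraries as labelled. The spread between the High libraries, a biological coefficient of variation of 42.4%, exceeded that of the Low duplicates, 17.3%. Summed over 9 epithelial keratins, the level was 2281 and 6384 CPM in the High libraries and 2819 and 1894 CPM in the Low libraries, so epithelial markers were present in every library. Leukocyte markers (8 of 9 listed in the table, with Cd3e and Emr1 among those at 0 throughout) summed to between 0.977 and 1.69 CPM per library, and 6 endothelial markers to between 0.292 and 0.732 CPM. Fibroblast markers were present, summing over 9 genes to 1136 and 181 CPM in the High group and 5332 and 4812 CPM in the Low group, with Lum at 0 in all 4. Col1a1 (2521 and 2133 CPM) and Col3a1 (1970 and 1834 CPM) led the sums in the Low libraries. Of the 7 tested fibroblast markers, 4 had log2 fold changes below 0 in High over Low and 3 above 0. Some fibroblast markers, such as collagens, are also made by tumour cells in a mesenchymal state. The part of the difference in these sums in the results below was not tested. In bulk RNA, fewer cells of a type and less RNA per cell cannot be told apart.

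The inducers together were more abundant than the antagonists in each of the 4 libraries. FPKM, the deposited level per kilobase of transcript, allows different genes to be ordered. Prrx1 led in High library 1 at 33.8 FPKM, Twist1 in High library 2 at 33.2 FPKM, Snai1 in Low library 1 at 66.5 FPKM and Prrx1 in Low library 2 at 51.2 FPKM, just ahead of Snai1 at 50.8 FPKM. From rank 4 down, both Low libraries had the same order: Twist1, Snai2, Zeb1, Zeb2, Esrp1, Grhl2 and Ovol1. Snai1, Prrx1 and Twist2 averaged 58.7 ± 11.2, 45.8 ± 7.63 and 41.3 ± 9.73 FPKM in the Low libraries (SD, n = 2), and these ranges overlapped. Within each Low library Snai1 was above Twist2, at 66.5 against 48.2 FPKM and at 50.8 against 34.4 FPKM, while Prrx1 changed place. The ranges of Zeb1 (16.2 ± 3.34 FPKM) and Snai2 (17.0 ± 3.16 FPKM) also overlapped there, although Snai2 was the higher within each Low library. The antagonists filled the lowest 3 places in both Low libraries, between 1.59 and 8.69 FPKM. That order differed in High library 2, where Esrp1 stood at rank 3 with 21.3 FPKM, above Snai1 with 13.96 FPKM, and Snai2 stood last with 1.999 FPKM. In High library 1, Esrp1 was at rank 6 with 12.1 FPKM, and Grhl2 and Ovol1 remained last at 3.59 and 2.82 FPKM. All 10 genes were therefore detected in every library, inducers and antagonists side by side.

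**Figure D1:**
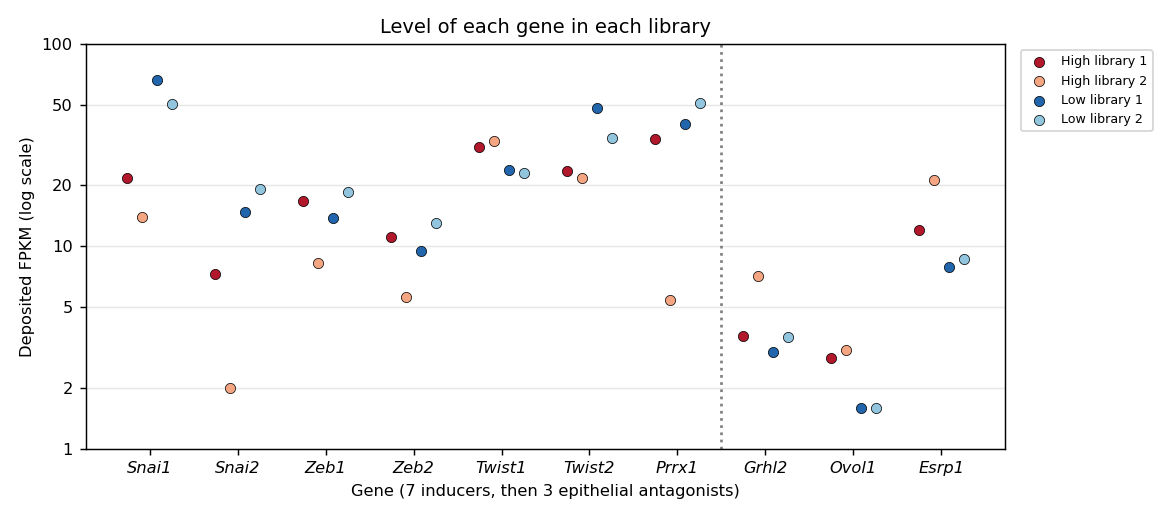
Deposited FPKM (log axis) of the 7 inducers and, right of the dotted line, the 3 antagonists, with 1 point per library. Snai1 lies at 21.9 and 13.96 FPKM in the High libraries, below 66.5 and 50.8 FPKM in the Low libraries, while Ovol1 and Esrp1 lie higher in both High libraries.

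The first comparison set the libraries labelled High, given as add-back clones, against those labelled Low; the Arid1a values above do not bear out the label. Snai1 fell 3.25-fold in the High libraries and was the only member to pass edgeR's test, 1 of 10, where 2.47% of all 12987 genes tested passed in either direction, 1.33% as lower and 1.14% as higher. The other 9 did not pass. The groups did not overlap in 8 of the 10 members, where 51.0% of all tested genes had groups that did not overlap. Of the 7 inducers, 4 were lower in both High libraries (Snai1, Snai2, Twist2 and Prrx1), 1 was higher (Twist1) and 2 overlapped (Zeb1 and Zeb2). All 3 antagonists were higher in both. Median log2 fold changes were -0.86 over the 7 inducers and 0.90 over the 3 antagonists, beside 0.03 over all genes tested. A single library decided the count of members called: it was 8 (6 lower, 2 higher) without High library 1, where 2193 of 13459 genes passed, 2 without High library 2, where 2475 of 13273 passed, and 0 without either Low library, where 0 genes passed (1 and 2 members at an unadjusted p under 0.05 without Low libraries 1 and 2).

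**Figure D2:**
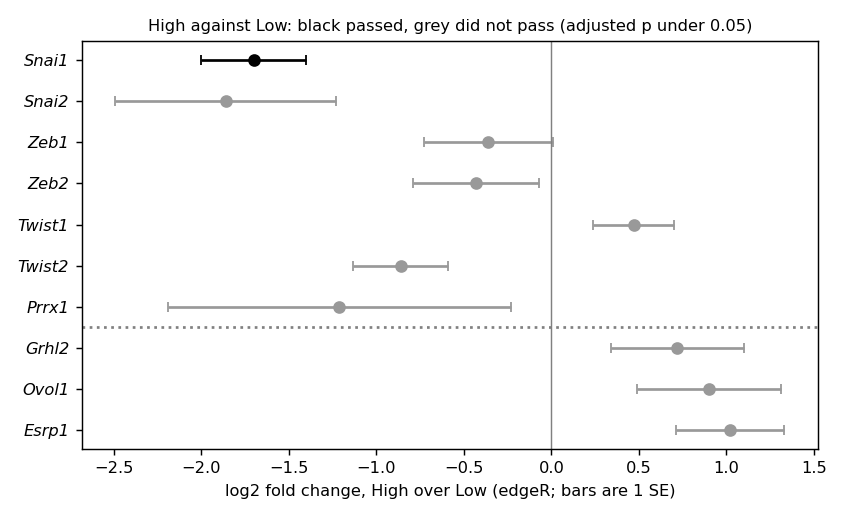
Log2 fold change of each member in the High over the Low libraries, with 1 SE from edgeR. Only Snai1 (-1.70 ± 0.30) passed at an adjusted p of 0.05; the 3 antagonists below the dotted line and Twist1 lie above 0 without passing.

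Snai1 (ENSMUSG00000042821.7, plus strand of chromosome 2, 167538195 to 167542814, mm10, 3 exons) encodes Snail, a repressor of E-cadherin. It was at 30.7 and 19.6 CPM in High libraries 1 and 2, against 92.7 and 70.8 CPM in Low libraries 1 and 2. That is 526 and 481 fragments in the High libraries, and 1262 and 1934 in the Low libraries. Both High libraries were low, and the groups were separated by a gap wider than the spread within either. The mean was 25.2 ± 7.88 CPM in High and 81.7 ± 15.5 CPM in Low (SD, n = 2 each), a log2 fold change of -1.70 ± 0.30 (SE; edgeR, adjusted p = 0.0340). The change kept its direction in all 14 alternatives (log2 fold change -2.06 to -1.42, adjusted p 7.82e-09 to 0.698), but the call was lost without Low library 1 (adjusted p = 0.698) or Low library 2 (adjusted p = 0.563). In those fits edgeR called 0 genes in all, with 970 and 800 at an unadjusted p under 0.05. A crossed block of replicates, added after seeing the data, also lost it (adjusted p = 0.102).

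The promoter of Snai1 is shown because it was the only promoter among those of the members in which the letters CAGGTG or CACCTG, the E-box form that Snail and Zeb proteins bind, were found. Promoters are RefSeq windows of 300 bases on build GRCm38.p6 (the same coordinates as mm10), from 250 bases before to 50 after a gene's start. Entries were found for 5 of the 10 members: Snai1, Zeb2, Twist1, Twist2 and Prrx1, with 8 promoters in all. Both strands were searched, since each of these 6-letter words is the reverse complement of the other, and any match is also a match to the general E-box CANNTG. The window at chr2:167537945-167538244 (plus strand) reads 5′ to 3′ as follows, with the match in capitals, which begins 126 bases before the start.
Snai1: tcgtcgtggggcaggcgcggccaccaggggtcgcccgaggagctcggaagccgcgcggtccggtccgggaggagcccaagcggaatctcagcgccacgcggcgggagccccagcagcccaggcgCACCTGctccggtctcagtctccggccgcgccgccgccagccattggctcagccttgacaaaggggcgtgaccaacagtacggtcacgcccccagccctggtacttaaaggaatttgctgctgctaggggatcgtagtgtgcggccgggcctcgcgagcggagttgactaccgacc
Snail is known to bind its own promoter, and the match is given here as a description of the letters only. Among all 32851 promoters, 20.2% held 1 of these words.

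Snai2 (ENSMUSG00000022676.7, plus strand of chromosome 16, 14705852 to 14709385, mm10) encodes Slug, the closest relative of Snail in this set. It was at 13.4 and 3.66 CPM in the High libraries (230 and 90 fragments), against 26.8 and 35.0 CPM in the Low libraries (365 and 956 fragments). Both High libraries were lower than both Low libraries, but they lay far apart from each other. The fitted change, -1.86 ± 0.63 on the log2 scale, had a larger SE than that of Snai1 and did not pass (edgeR, adjusted p = 0.223). It did pass without High library 1 (adjusted p = 1.46e-12), without High library 2 (0.00455) and with DESeq2 (0.0254).

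Zeb1 (chromosome 18, 5591860 to 5775467, plus strand, mm10) and Zeb2 (chromosome 2, 44983632 to 45117395, minus strand, mm10) are large zinc-finger repressors that act late in EMT and are held down by microRNAs of the miR-200 family. Zeb1 was at 95.5 and 46.8 CPM in the High libraries, against 77.9 and 105 CPM in the Low libraries. Zeb2 was at 100.4 and 50.7 CPM in High and 85.5 and 117 CPM in Low. For both, High library 1 lay between the Low libraries and High library 2 lay below them, so the groups overlapped. Their log2 fold changes of -0.36 ± 0.37 and -0.43 ± 0.36 (SE) did not pass (edgeR, adjusted p = 0.661 and 0.586), and that of Zeb1 changed sign, to 0.06, without High library 2. The ratio of Zeb1 to Zeb2 FPKM was 1.51 and 1.47 in the High libraries and 1.45 and 1.42 in the Low libraries.

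Twist1 (chromosome 12, 33957671 to 33959829, plus strand, mm10) and Twist2 (chromosome 1, 91801461 to 91848028, plus strand, mm10) had fold changes of opposite sign. Twist1 was at 45.1 and 48.0 CPM in the High libraries against 34.1 and 33.0 CPM in the Low pair. Twist2 was at 26.5 and 24.5 CPM in High and at 53.8 and 38.5 CPM in Low. In neither gene did the groups overlap, and the High libraries lay close together in both. Neither difference passed: the log2 fold change was 0.47 ± 0.23 (SE) for Twist1 (edgeR, adjusted p = 0.346) and -0.86 ± 0.27 for Twist2 (edgeR, adjusted p = 0.162). The ratio of Twist1 to Twist2 FPKM was 1.32 and 1.52 in the High libraries, against 0.492 and 0.667 in the Low libraries, so Twist1 was the more abundant of the pair in both High libraries and Twist2 in both Low libraries. This ratio was not tested.

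Prrx1 (chromosome 1, 163245119 to 163313710, minus strand, mm10), which marks fibroblasts as well as cells in EMT, had the largest standard error of the 10. It was at 158 and 25.3 CPM in the High libraries (2699 and 622 fragments), against 186 and 236 CPM in the Low libraries (2526 and 6442 fragments). High library 1 was thus near the Low libraries, and High library 2 far below. The log2 fold change was -1.21 ± 0.98 (SE) and did not pass (edgeR, adjusted p = 0.603). It was -3.05 without High library 1 and -0.43 without High library 2, in fits that hold 1 High library and so measure no spread within that group.

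Together the 7 inducers summed to 145 and 90.2 FPKM in the High libraries, against 217 and 210.1 FPKM in the Low libraries. Within that sum the shares of single genes differed between libraries. Snai1 made up 15.0% and 15.5% in the High libraries and 30.7% and 24.2% in the Low libraries. Twist1 made up 21.4% and 36.8% in High and 10.9% in each Low library. Zeb1 lay between 6.37% and 11.5% in all 4 libraries. These sums and shares are descriptions of the libraries and were not tested.

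**Figure D3:**
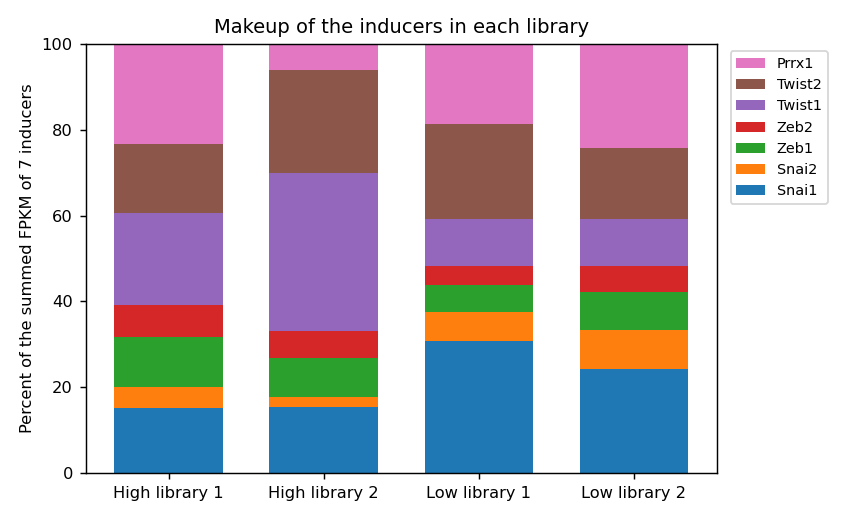
Each bar is 1 library and stacks the 7 inducers as percent of their summed FPKM. The Snai1 share is 15.0% and 15.5% in the High bars and 30.7% and 24.2% in the Low bars, and the Twist1 share is 21.4% and 36.8% in the High bars and 10.9% in both Low bars.

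The 3 antagonists were higher in both High libraries without passing the test over the groups (edgeR, DESeq2 and limma-voom called 0 of 3). By edgeR, 1 of the 3 was at an unadjusted p under 0.05, as were 2348 of all 12987 genes tested. Esrp1 (chromosome 4, 11331933 to 11386783, minus strand, mm10), the splicing regulator, was at 44.8 and 79.1 CPM in High and at 29.2 and 32.05 CPM in Low. Its log2 fold change was 1.02 ± 0.31 (SE; edgeR, adjusted p = 0.152), and it passed with no filter on low counts (adjusted p = 0.0461). Grhl2 (chromosome 15, 37233036 to 37363569, plus strand, mm10) was at 17.3 and 34.3 CPM in High and at 14.4 and 17.0 CPM in Low. High library 1 lay barely above Low library 2 here, so the separation rested on High library 2 (log2 fold change 0.72 ± 0.38, SE; edgeR, adjusted p = 0.373). Ovol1 (chromosome 19, 5549136 to 5560646, minus strand, mm10) was among the least abundant members, at 7.71 and 8.43 CPM in High and at 4.33 and 4.32 CPM in Low. Its Low duplicates nearly coincided. With 59 to 207 fragments per library, the difference of 0.90 ± 0.41 in log2 CPM missed the threshold (edgeR, adjusted p = 0.308). Summed, the antagonists stood at 18.5 and 31.5 FPKM in High and at 12.5 and 13.8 FPKM in Low.

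Some exons of these genes overlap a gene on the opposite strand. The overlap is 1477 bases for Twist2 (Gm29100), 690 for Ovol1 (Gm31166), 653 for Zeb2 (Zeb2os), 198 for Zeb1 (Gm10125), 169 for Grhl2 (Gm16136) and 127 for Esrp1 (Gm26663), each the longest of its gene, by the GENCODE M21 annotation. The kit kept strand, but the strand setting of the counting is not given in the sources used here, so a contribution from these partners cannot be told apart.

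The second comparison set the High libraries against each other, since they are labelled as separate clones. It compares a pair of libraries: neither clone has a replicate, and a spread between libraries of 1 clone was not measured. Against the spread of the Low duplicates, Prrx1, Snai2, Zeb1 and Zeb2 were higher in High library 1 than in High library 2. The other 6 members did not pass. Of these, Grhl2 and Esrp1 were at an unadjusted p under 0.05, as were 2736 of all 12987 genes tested. Thus 4 of 10 members passed, where 10.9% of all genes tested passed in either direction and 6.47% passed as higher. This fit had 3 groups and 1 residual degree of freedom, so its spread comes from the Low duplicates alone, which may be technical, and its p-values may be too small. Prrx1 was 6.23-fold higher (log2 fold change 2.64 ± 0.37, SE; edgeR, adjusted p = 1.01e-10) and Snai2 3.66-fold higher (1.87 ± 0.43; edgeR, adjusted p = 2.86e-04). Zeb1 was 2.04-fold higher (1.03 ± 0.34; edgeR, adjusted p = 0.0238) and Zeb2 1.98-fold higher (0.98 ± 0.34; edgeR, adjusted p = 0.0355), and the call of Zeb2 was lost with DESeq2 (adjusted p = 0.0557) and with no filter on low counts (0.0506). Snai1 (0.65 ± 0.35; edgeR, adjusted p = 0.283), Twist1 (-0.09 ± 0.36; 0.935) and Twist2 (0.11 ± 0.37; 0.918) did not pass. The antagonists had log2 fold changes below 0, at -0.99 ± 0.39 for Grhl2, -0.82 ± 0.35 for Esrp1 and -0.13 ± 0.48 for Ovol1, and did not pass either (edgeR, adjusted p = 0.0837, 0.132 and 0.929).

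Each High library was also set against the Low libraries, which both contrasts share, in the same fit and with the same limit. In High library 1, Snai1 and Snai2 fell, and the other 8 members did not pass (18.9% of all genes passed, 8.19% as lower). In High library 2, Snai1, Snai2, Zeb1, Zeb2, Twist2 and Prrx1 fell, Esrp1 and Grhl2 rose, and Twist1 and Ovol1 did not pass (17.3% of all genes passed, 8.15% as lower and 9.16% as higher). Snai1 fell 2.66-fold in High library 1 and 4.17-fold in High library 2 (edgeR, adjusted p = 1.71e-04 and 1.77e-08). Snai2 fell 2.30-fold in High library 1 and 8.44-fold in High library 2 (edgeR, adjusted p = 0.00665 and 1.89e-12). In High library 2 alone, Prrx1 fell 8.32-fold, Zeb1 1.95-fold, Zeb2 2.002-fold and Twist2 1.88-fold, with edgeR adjusted p of 6.45e-16, 0.0104, 0.00795 and 0.0355, and Twist2 missed the threshold with DESeq2 (0.0596). Esrp1 rose 2.58-fold and Grhl2 2.18-fold there (edgeR, adjusted p = 5.48e-05 and 0.00462). Zeb1 and Zeb2 in High library 1 stood at log2 fold changes of 0.06 ± 0.29 and -0.02 ± 0.29 (SE), and that of Zeb2 was 0.07 when scaled by library totals alone.

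**Figure D4:**
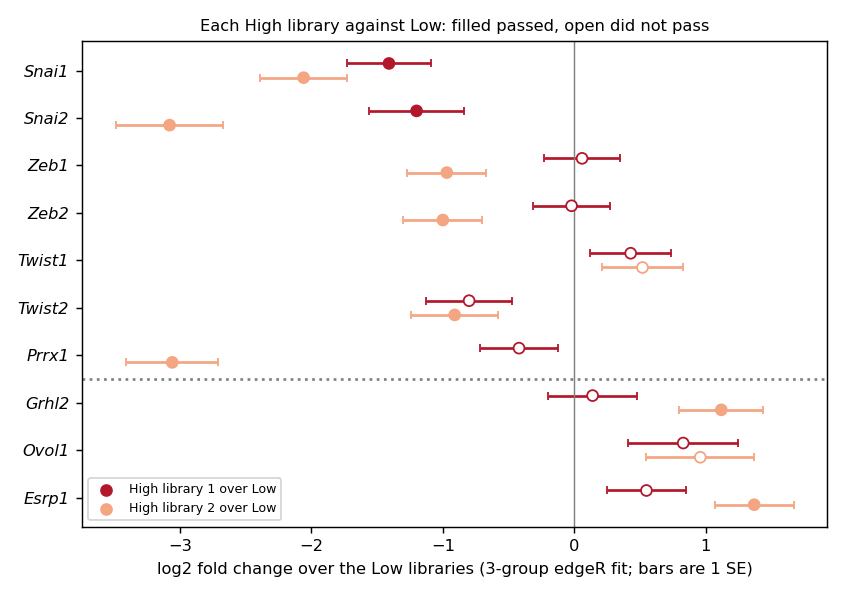
Log2 fold change of each member in each High library over the Low libraries, with 1 SE; filled points passed and open points did not. Snai1 and Snai2 are filled for both libraries, whereas Prrx1 lies at -0.42 for High library 1 and at -3.06 for High library 2.

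Genes of epithelial junctions and polarity, a list that includes known targets of these factors, were read from the same fits. Among 34 epithelial junction and polarity genes, 3 rose in the High libraries (1.14% of all genes tested did) and the other 31 did not pass. Of the 34, 28 had both High libraries above both Low libraries (25.9% of all genes tested did). This list and those below were chosen with earlier results of these data known, so their shares are descriptions only. The median log2 fold change was 1.36, beside 0.03 over all genes. The risers were Mal2, a protein of apical transport (4.95-fold; edgeR, adjusted p = 0.0183), Ppl, the cornified-envelope plakin periplakin (4.62-fold; 0.0198), and Cdh3, P-cadherin (3.71-fold; 0.0491). E-cadherin, Cdh1, the best-known target of Snail and Zeb, was at 263 and 386 CPM in High and at 130.4 and 146 CPM in Low, without passing (log2 fold change 1.23 ± 0.26, SE; edgeR, adjusted p = 0.0576). Epcam, an epithelial adhesion molecule, was at 114 and 241 CPM in High and at 92.7 and 78.6 CPM in Low (edgeR, adjusted p = 0.216). The count rested on the libraries: it changed with any library left out, in fits that hold 1 library in a group. DESeq2 called 16 as higher (611 of all 12987 genes tested) and limma-voom 2 (121 of all). Between the clones, 14 of the 34 were lower in High library 1 than in High library 2 and the other 20 did not pass (4.46% of all genes passed as lower). Of the 5 claudins of the list, chosen for mention after their values were seen, Cldn3, Cldn4 and Cldn7 were lower, at 64.7, 53.3 and 35.5 CPM in High library 1 and at 184, 138 and 98.9 CPM in High library 2. Cldn1 had the opposite sign, at 36.9 CPM in High library 1 and 18.9 CPM in High library 2 (edgeR, adjusted p = 0.101), and Cldn6 was near 0, at 1.11 and 1.79 CPM (0.767).

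Promoters of this list often held the E-box words searched above. Entries were found for 19 of the 34 genes, and 14 of these had CAGGTG or CACCTG in at least 1 promoter. No word was found for Cgn, Tjp1, Jup, Cldn1 and Spint1. The risers Mal2, Ppl and Cdh3 had no entry, nor did Cdh1, so the shares below do not cover them. Counted by promoter, 18 of 24 held a word (75.0%), against 1 of 17 promoters of the mesenchymal list below (5.9%) and 20.2% of all promoters. The general E-box CANNTG was in 83.3%, 52.9% and 72.3% of these sets, and the Grainyhead-like word AACNNGTT in 8.3%, 0.0% and 4.2%. The list includes known targets of Snail, Zeb and Grainyhead-like proteins, so its share is no independent evidence of binding. A pair of the promoters that held a word, with the matches in capitals, is set beside that of the mesenchymal gene Vim, in which none was found. Neither gene of the pair passed in High against Low (edgeR, adjusted p = 0.216 for Epcam and 0.266 for Cldn4). Epcam lies at chr17:87635729-87636028 (plus strand), with words 187 and 19 bases before its start. Cldn4 lies at chr5:134946885-134947184 (minus strand), with words beginning 14 bases before and 11 bases after its start. Vim lies at chr2:13574061-13574360 (plus strand).
Epcam: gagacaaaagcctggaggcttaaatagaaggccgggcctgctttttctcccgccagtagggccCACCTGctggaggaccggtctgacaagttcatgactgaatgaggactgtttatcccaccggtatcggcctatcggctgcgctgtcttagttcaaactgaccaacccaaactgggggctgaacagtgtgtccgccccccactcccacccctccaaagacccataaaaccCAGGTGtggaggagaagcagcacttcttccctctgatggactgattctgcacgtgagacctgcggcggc
Cldn4: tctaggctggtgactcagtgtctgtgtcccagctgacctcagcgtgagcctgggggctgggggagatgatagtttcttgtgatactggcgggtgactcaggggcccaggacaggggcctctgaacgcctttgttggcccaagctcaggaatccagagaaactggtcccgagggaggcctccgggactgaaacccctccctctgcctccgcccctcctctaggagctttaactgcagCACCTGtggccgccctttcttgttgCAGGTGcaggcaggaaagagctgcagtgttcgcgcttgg
Vim: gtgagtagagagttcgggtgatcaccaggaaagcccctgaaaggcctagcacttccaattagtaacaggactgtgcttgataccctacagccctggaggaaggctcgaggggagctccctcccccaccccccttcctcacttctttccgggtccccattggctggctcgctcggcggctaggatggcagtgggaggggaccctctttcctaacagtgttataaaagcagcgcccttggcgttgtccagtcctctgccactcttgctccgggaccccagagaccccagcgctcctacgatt

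Most of the mesenchymal list, also chosen with earlier results of these data known, had log2 fold changes below 0. Of 24 tested genes (25 listed), 6 fell (1.33% of all genes tested did) and the other 18 did not pass, with a median log2 fold change of -2.11, and 17 had both High libraries below both Low libraries (25.1% of all genes tested did). In 4 genes the log2 fold change was above 0, and in 2 of these, S100a4 (0.88; edgeR, adjusted p = 0.124) and Axl (0.17; 0.724), both High libraries lay above both Low libraries. The fallers were Loxl2, a matrix cross-linking enzyme (22.4-fold lower; edgeR, adjusted p = 0.00574), the fibronectin receptor subunit Itga5 (4.80-fold; 0.00622), smooth-muscle actin Acta2 (79.2-fold; 0.00976), the gelatinase Mmp9 (3.69-fold; 0.0104), Vim, vimentin (2.88-fold; 0.0275), and the microfibril gene Fbn1 (14.6-fold; 0.0316). Vim was at 760.1 and 591 CPM in High and at 2167 and 1725 CPM in Low. Fibronectin, Fn1, was at 1492 and 571 CPM in High and at 2504 and 3404 CPM in Low (edgeR, adjusted p = 0.205). N-cadherin, Cdh2, was lowest in High library 1, at 14.4 and 114 CPM in High against 228 and 253 CPM in Low (edgeR, adjusted p = 0.474). Its clone order, with High library 1 below High library 2 (log2 fold change -2.98 ± 0.38, SE; edgeR, adjusted p = 6.95e-13), was the reverse of that of Prrx1 and Snai2. The count of fallers also changed with any library left out, in fits that hold 1 library in a group. DESeq2 called 12 lower and 1 higher (525 and 611 of all 12987 genes tested) and limma-voom 8 lower (200 of all). Between the clones, 13 genes were higher in High library 1 and 3 were lower, where 6.47% of all genes tested passed as higher and 4.46% as lower.

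Other regulators of both kinds were read in the same way. Of 16 tested factors reported to drive EMT (18 listed), 1 rose (1.14% of all genes tested did) and the other 15 did not pass. The riser was Foxq1, a forkhead factor, at 30.0 and 24.1 CPM in High and at 5.14 and 3.99 CPM in Low (5.93-fold; edgeR, adjusted p = 0.0118). Snai3, the third Snail-family gene, was at 2.45 and 9.89 CPM in High and at 1.62 and 0.805 CPM in Low (edgeR, adjusted p = 0.189), and Runx2 did not pass (log2 fold change -0.54; edgeR, adjusted p = 0.273). Among 16 tested epithelial regulators (18 listed), 1 rose (1.14% of all genes tested did) and the other 15 did not pass. The median log2 fold change was 1.41, beside 0.03 over all genes tested. The riser was Klf5, a zinc-finger factor of basal epithelium, at 43.4 and 55.2 CPM in High and at 16.7 and 17.5 CPM in Low (2.88-fold; edgeR, adjusted p = 0.0306). Grhl3, a relative of Grhl2, was at 4.44 and 7.69 CPM in High and at 1.03 and 0.768 CPM in Low (edgeR, adjusted p = 0.0621), and Klf4 at 56.8 and 64.4 CPM in High and at 32.2 and 26.3 CPM in Low (0.0769). Between the clones, 5 of these regulators were lower in High library 1 and 2 were higher (4.46% and 6.47% of all genes tested were). The 2 were Elf5, at 10.9 and 0 CPM in High and 1.47 and 1.57 CPM in Low, and Ehf. Ehf was at 45.6 and 6.43 CPM in High and at 11.5 and 15.7 CPM in Low. Prrx2, the paralogue of Prrx1 and chosen after its values were seen, was at 41.7 CPM in High library 1 and 5.74 CPM in High library 2, and between them, at 16.6 and 14.9 CPM, in the Low libraries.

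Upstream signals and cofactors completed the set. Of 26 genes of pathways known to induce Snail-family genes, 3 fell (1.33% of all genes tested did) and the other 23 did not pass. The fallers were the matricellular factor Ctgf (3.53-fold lower; edgeR, adjusted p = 0.0148), the ligand Tgfb1 (2.54-fold; 0.0489) and the receptor Egfr (2.55-fold; 0.0492). Log2 fold changes were above 0 in 12 of the 26 and below 0 in 14, with a median of -0.31. In 13 of the 26 both High libraries lay below both Low libraries, and in 6 both lay above (25.1% and 25.9% of all genes tested did). Among the 6 were Tgfbr2 (4.39-fold higher; edgeR, adjusted p = 0.0653) and Bmp4 (7.44-fold; 0.0831). Among the 13 was Jag1 (4.37-fold lower; edgeR, adjusted p = 0.106). These 3 genes were chosen after their values were seen. Of 21 tested corepressors and turnover factors of Snail and Zeb proteins, edgeR, DESeq2 and limma-voom called 0, and the median log2 fold change was -0.17. By edgeR, 1 of the 21 was at an unadjusted p under 0.05, where 2348 of all 12987 genes tested were. The smallest adjusted p among these belonged to the LIM protein Ajuba, at a log2 fold change of 0.74 (edgeR, adjusted p = 0.174), followed by the deacetylase Hdac1 (-0.42; 0.370) and the kinase subunit Csnk2a1 (-0.41; 0.427). Epithelial keratins did not pass between the groups (0 of 8 by edgeR and limma-voom, 1 by DESeq2). By edgeR, 1 keratin was at an unadjusted p under 0.05, where 2348 of all 12987 genes tested were. The smallest edgeR adjusted p values were 0.192 for Krt14, 0.384 for Krt7 and 0.407 for Krt19. Between the clones, 7 of the 8 keratins passed as lower in High library 1, where 4.46% of all genes tested did. Of 7 tested fibroblast markers, 6 passed as higher there, where 6.47% of all genes tested did. Among the fibroblast markers Fap fell (1.33% of all genes tested did) and the other 6 tested did not pass. Fap, Col1a1 and Dcn had log2 fold changes of -6.55, -5.87 and 4.46 in High over Low (edgeR, adjusted p = 0.00738, 0.0717 and 0.251). These keratin and fibroblast differences ran beside those of Prrx1, Snai2, Zeb1 and Zeb2 between the clones, and their part in them was not tested. Of the leukocyte markers only Cd68 passed the filter (edgeR, adjusted p = 0.959).

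**Figure D5:**
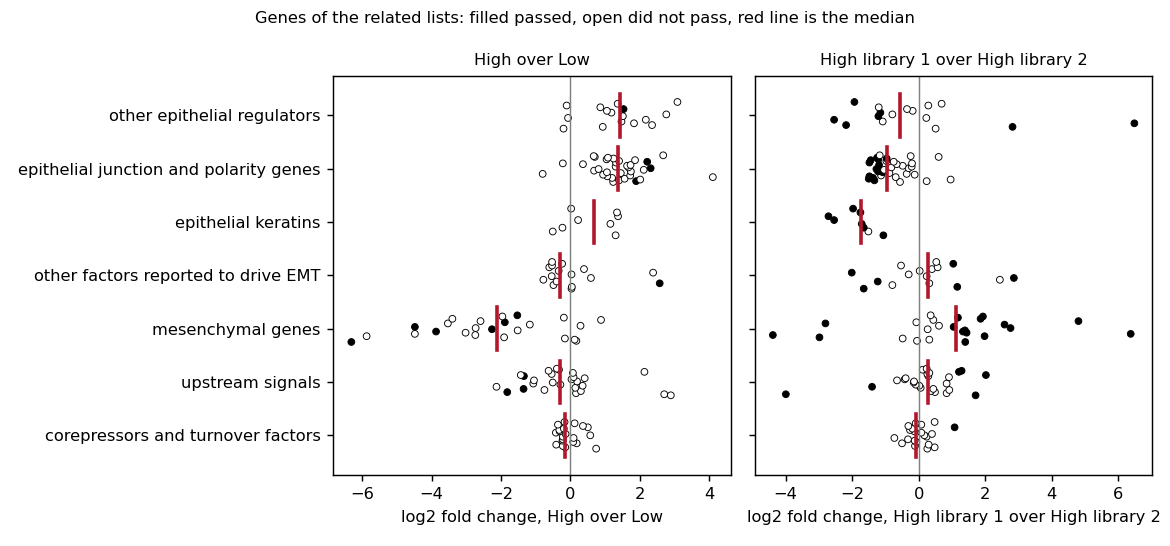
Log2 fold changes of the genes in 7 related lists, High over Low at left and High library 1 over High library 2 at right, with the list median in red; genes with 0 fragments in 1 of the 2 clones are drawn at a floor of 3 fragments. Junction genes have a median of 1.36 at left and -0.96 at right, and mesenchymal genes -2.11 and 1.11.

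Over the 4 libraries, the genes with the pattern most like that of Snai1, by Euclidean distance between log2 CPM values centred on each gene's mean, were Cyp2d22 (distance 0.0794), Cul7 (0.126) and Krt42 (0.180). Cul7 was at 39.7 and 26.9 CPM in High and at 115 and 87.0 CPM in Low. The other matches were at low levels and did not pass. Cyp2d22 was at 0.876 and 0.570 CPM in High and at 2.86 and 2.23 CPM in Low (edgeR, adjusted p = 0.229). Krt42 was at 1.64 and 1.10 CPM in High and at 4.70 and 3.66 CPM in Low (edgeR, adjusted p = 0.215). The likeness rests on 4 libraries and is a description.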

How the data were processed

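Directional libraries from 500 ng of total RNA were sequenced, per the labels' protocols. Upstream tools were cutadapt 1.5, TopHat2 2.0.13 and Cuffdiff 2.2.1 on mm10, per the submitters' processing notes; the annotation and the strand setting were not stated there. Per the file headers, the table holds estimated counts of fragments, a signal of fragments scaled by the authors (factors 0.7291 to 1.4646 per library) and FPKM. Of the deposited estimated counts, 99.18% were whole within 1e-06, and all were rounded. No per-sample column was left unused (0). A failed status marked 11 genes, 0 of them in the lists here, and these were kept.

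Genes were tested two-sided in R 4.3.3 by the quasi-likelihood method of edgeR 4.0.16, beside limma 3.58.1, after TMM scaling and a low-count filter (smallest count 10), adjusted by Benjamini-Hochberg over 12987 genes at 0.05; functions were tested on simulated data. SE is the log2 fold change over the root of F. CPM are TMM-scaled. The fits had 2 (groups) and 1 (clones) residual degrees of freedom. With 2 libraries a group, the smallest exact permutation p is 0.333, and that test was not used. The duplicates differed by more than sampling noise (chi-square per degree of freedom 33.7 in Low), but the labels do not call them separate cultures, so p-values measure the spread between these libraries only, which may be technical.

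The members, lists and tests were chosen with earlier results of these data known. Genes named were the 10 members, Arid1a, Cdh1, Epcam, Vim, Fn1, Cdh2, up to 6 called genes per list or the 3 of smallest adjusted p, and the 3 nearest patterns of a called member. Alternatives were other scalings, filters, DESeq2 1.42.0, limma-voom, limma on log2(FPKM + 1) and log2(FPKM + 0.1), a replicate block and leaving out each library. A group at 0 was set to a floor of 3 fragments, which covers counting error only. Coordinates are from GENCODE M21.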

Additional observations from a re-analysis of the deposited data

Results flagged for a closer look

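For 4 members, High library 1 and High library 2 differed by more than the spread of the Low duplicates. Each clone has 1 library, so the spread within a clone was not measured and the p-values may be too small. The log2 difference, High library 1 over High library 2, was 2.64 for Prrx1, 1.87 for Snai2, 1.03 for Zeb1 and 0.98 for Zeb2 (edgeR, adjusted p = 1.01e-10, 2.86e-04, 0.0238 and 0.0355). Beside them, fibroblast markers summed to 1136 CPM in High library 1 and 181 CPM in High library 2, and epithelial keratins to 2281 CPM in High library 1 and 6384 CPM in High library 2. Their part in these differences was not tested. Groups of 2 libraries are too small for an outlier test.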

How the results depend on the processing

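Of the results in High against Low (each of 10 members under 14 alternatives), 126 kept their direction and side of the threshold, 10 passed only under the alternative, 3 calls were lost (all of Snai1) and 1 changed sign. That was Zeb1, at 0.06 without High library 2 (range with a library left out, -0.96 to 0.06). In the single-clone contrasts, Zeb2 in High library 1 over Low changed sign to 0.07 with library totals alone. The count of genes called, 321, became 814 with no filter on low counts, 1136 with DESeq2 and 0 to 2475 with a library left out; the count of members called, 1, became 2 with no filter, 2 with DESeq2 and 0 to 8 with a library left out. Those fits hold 3 libraries and take the lone one to vary like the other group; the cause was otherwise not tested. With the replicate number as a block, 469 genes and 1 member (Snai1) were called; the number pairs nothing by design, and same-numbered libraries deviated from their group means with r = -0.139 across genes. A crossed pairing, added after seeing the data, called 94 genes and 0 members. The lowest count of a member was 59 fragments, for Ovol1 in Low library 1.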
